A study of Homo sapiens with 6 samples.

Results

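The transcription factor NRF2 and the enzymes around it, which make and use glutathione, thioredoxin and NADPH and remove superoxide and peroxides, were described in U87 cells after knockdown of the long noncoding RNA LINC00152. The genes were chosen by name, as a list of 44 NRF2, glutathione, thioredoxin, peroxiredoxin, superoxide dismutase, exporter and NADPH genes, all found among the 27192 genes of the count tables. Earlier results of these data were known when the list was chosen. U87 is an established human glioblastoma cell line, and the labels give its tissue as brain. The siLINC00152 cells received a combination of 2 siRNAs against LINC00152 and the siGL2 cells a nonspecific siRNA. Cells of both groups were transfected 2 times with 24 hours between, and were collected 24 hours after the second transfection. Each group held 3 libraries of polyA RNA, named A, B and C. Whether the 3 are separate cultures is not said in the labels, and p-values here therefore describe the spread among 3 libraries, possibly only technical spread.

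NRF2, encoded by NFE2L2, is a transcription factor that KEAP1 holds in the cytoplasm and passes to the proteasome. When oxidants or electrophiles modify KEAP1, NRF2 enters the nucleus, pairs with a small MAF protein and binds antioxidant response elements beside genes for glutathione synthesis, quinone reduction, haem breakdown, thioredoxin reduction and NADPH supply. BACH1 pairs with the same small MAF proteins and represses many of these genes. NRF2 is regulated largely through its protein, which RNA counts do not measure.

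Total counts were 41963120 to 43713662 in the siLINC00152 libraries and 42139419 to 46234763 in the siGL2 libraries. LINC00152 (chromosome 2, 87454781 to 87636740, plus strand; GRCh38, GENCODE release 29, as for all coordinates of genes here) had 114, 112 and 109 counts in siLINC00152 libraries A, B and C, against 650, 608 and 776 counts in siGL2 libraries A, B and C. That was 2.67 ± 0.108 against 15.2 ± 1.18 CPM, a count relative to library size after TMM scaling (SD, n = 3), and a log2 fold change of −2.51 ± 0.09 (SE; edgeR quasi-likelihood test, adjusted p = 4.55e-15). MIR4435-2HG, AC068491.4 and AC017002.1 hold 20.7% of the 75-base stretches of its transcripts. All 6 markers fixed for U87 or mesenchymal glioblastoma had at least 10 counts in each library. Of 4 astrocyte markers none did, and GFAP had 4, 7 and 2 counts in siLINC00152 libraries and 2, 7 and 12 in siGL2 libraries. Marker sums that differed between the groups were those of the U87 list (13481 to 13650 CPM in siLINC00152, 14576 to 14972 in siGL2), of the neuron list (69.3 to 77.0 CPM in siLINC00152, 94.1 to 95.5 in siGL2), of the microglia or blood list (0.305 to 0.476 in siLINC00152, 0.0423 to 0.255 in siGL2) and of the endothelium list (1.78 to 1.83 in siLINC00152, 1.92 to 2.60 in siGL2). The neuron list rested on SNAP25, MAP2 and SYT1, while its nuclear marker RBFOX3 had 1, 0 and 0 counts in siLINC00152 libraries and 0, 0 and 0 in siGL2 libraries. SNAP25 fell (log2 fold change −0.57 ± 0.05, edgeR adjusted p = 2.26e-09). MAP2 (0.07 ± 0.06) and SYT1 (−0.18 ± 0.08) did not pass (edgeR adjusted p = 0.340 and 0.0549). Of the microglia or blood list, AIF1 and HBB were at 0 in every library. CD14 had 15, 19 and 13 counts in siLINC00152 libraries and 4, 9 and 2 in siGL2 libraries (log2 fold change 1.71 ± 0.43, edgeR adjusted p = 0.00169). PTPRC went the other way, with 1, 1 and 0 counts in siLINC00152 libraries and 4, 2 and 0 in siGL2 libraries. Its counts were too few for the test. The part of these marker differences in the results below was not tested. Library A of siGL2 stood apart from B and C of its group, with a chi-square per degree of freedom of 11.5 and 14.5 over gene counts, against 3.02 between B and C. Library A of siLINC00152 also stood apart, though less, at 6.07 and 5.49 against 3.19 between B and C. Call changes without either library are given beside each gene.

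The antioxidant genes moved in both directions after knockdown. SOD2, GPX8, HMOX1 and PRDX2 had the largest falls, and BACH1, ABCC1, OSGIN1 and TXNIP the largest rises, and most roles held genes that rose beside genes that fell. Of the 44 genes, 41 passed the filter on low counts and were tested. Of these, 13 were higher in siLINC00152 cells and 19 were lower at an adjusted p under 0.05 (edgeR, adjusted over all 14078 tested genes). The share higher was 31.7% and the share lower 46.3%, against a background of 32.2% higher and 32.2% lower, together 64.3% of all tested genes. The same background holds for the counts by role below, which rest on few genes each. Most of these genes are abundant, and abundant genes pass more often. Of the 38 with a mean of at least 10 CPM, 13 were higher and 18 lower (81.6%), against a background of 72.4% of such genes (37.1% higher, 35.4% lower). Without siGL2 library A, 13 of the 41 were higher and 21 lower, where 32.7% of all tested genes were higher and 32.8% lower.

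The changes were mostly small, with a median size of 0.26 on the log2 scale, close to the 0.28 over all tested genes. Log2 fold changes ran between −1.12 in SOD2 and 0.58 in BACH1, with a signed median of −0.07 against 0.00 over all tested genes. A difference of at least 1.5-fold was called in 20.0% of all tested genes. Among the antioxidant genes it was called in 0 upward, against a background of 9.53%, and 4 downward, against 10.4%. Those 4 were SOD2, GPX8, HMOX1 and PRDX2. BACH1, at 1.4995-fold, lay just under the bound and was past it under 5 of the 16 alternatives, without siLINC00152 library A (log2 fold change 0.61) and without siGL2 library A (0.65) among them. ABCC1 was past it without siLINC00152 library C (0.61) and without siGL2 library B (0.65). The count upward was thus 0 or 1. The count downward ran between 3, without PRDX2 under a length offset, and 8 with library size alone as the scale, which added NQO1, GCLM, GPX1 and SOD3. It was 5 without siGL2 library A (NQO1 added), without siLINC00152 library B (GCLM added) and without siLINC00152 library A or siGL2 library C (SOD3 added in each). In the fit over all libraries SOD2 alone differed at least 2-fold, which 6.61% of all tested genes did. The values of the groups did not overlap in 33 of the 41 genes, 14 of them higher and 19 lower in siLINC00152 (background 67.7% in either direction, 33.9% higher and 33.8% lower). Summed over the 44 genes, the level was 5742, 5683 and 5698 CPM in siLINC00152 libraries A, B and C, against 5821, 6217 and 6268 CPM in siGL2 libraries A, B and C. The siLINC00152 sums all lay under the siGL2 sums. In bulk RNA, fewer cells of a kind and less RNA per cell cannot be told apart.

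**Figure D1:**
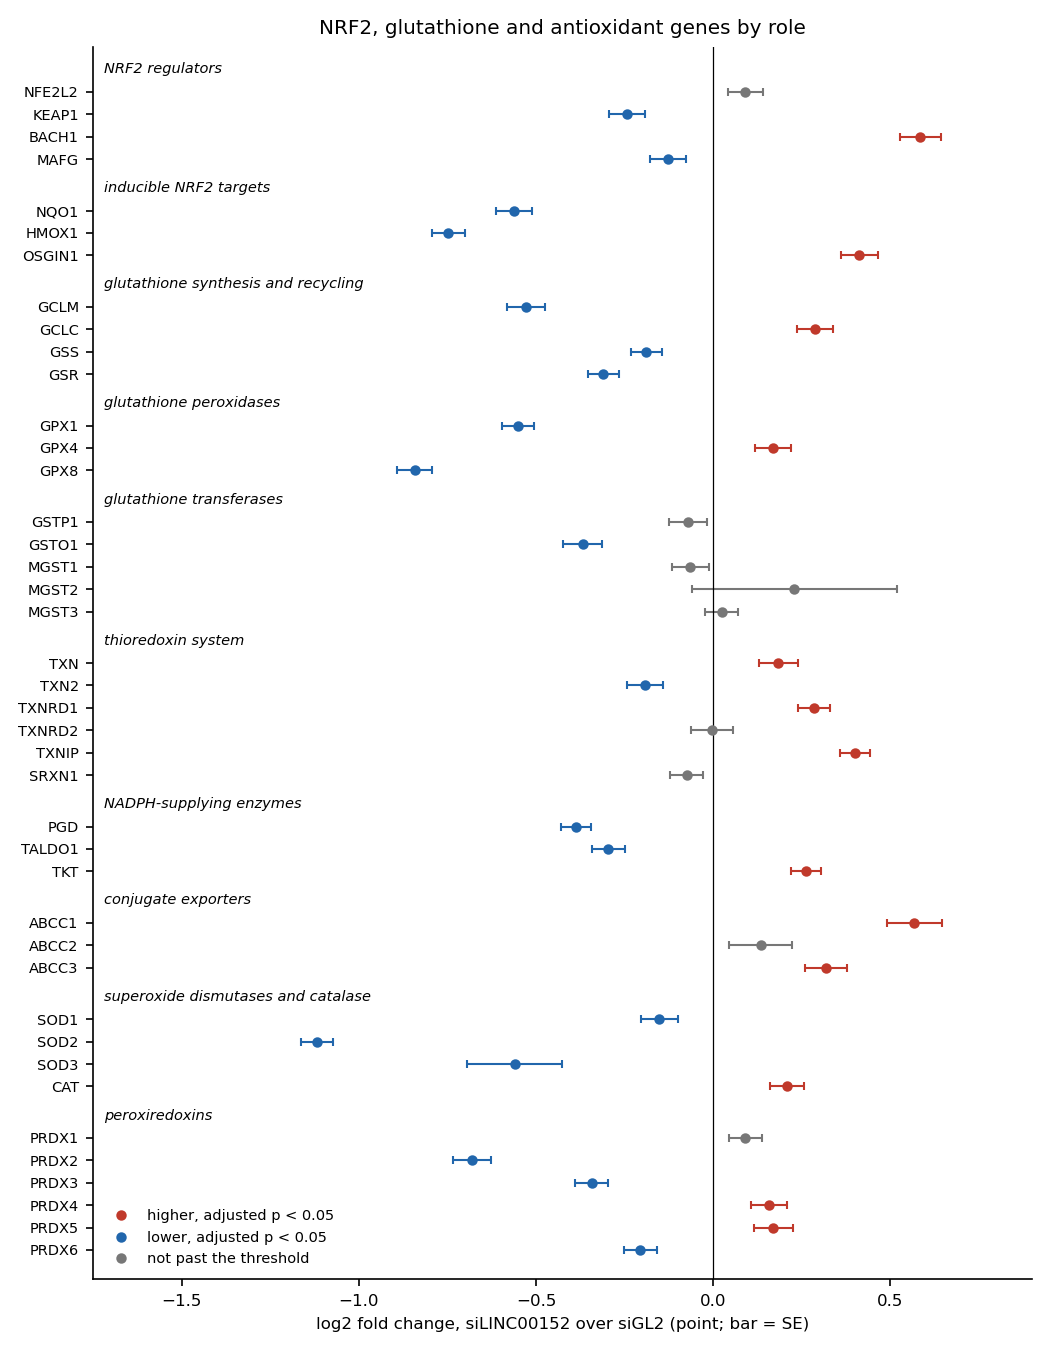
Log2 fold change of siLINC00152 over siGL2 (point) with its standard error (bar) for the 41 tested genes, grouped by role, with 3 libraries in each group; red is higher and blue lower at an edgeR adjusted p under 0.05, and grey did not pass. The largest fall was in SOD2 (−1.12) and the largest rise in BACH1 (0.58), and most roles held genes on both sides of 0.

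**Figure D2:**
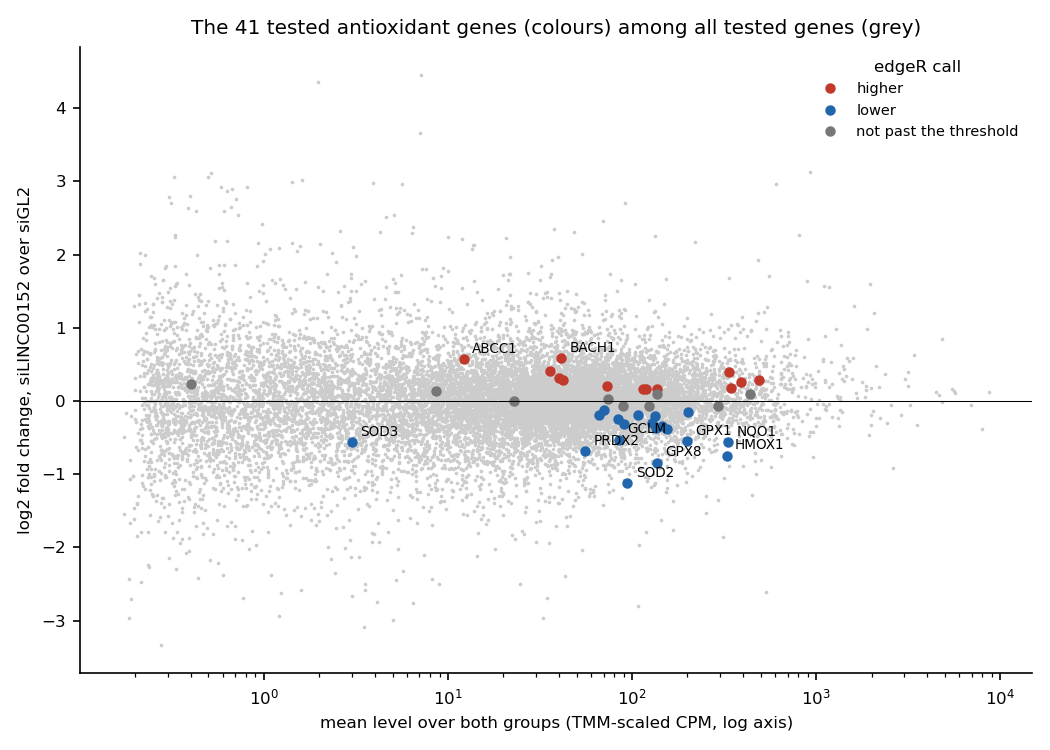
Log2 fold change of siLINC00152 over siGL2 against the mean level over both groups (TMM-scaled CPM, log axis) for all 14078 tested genes (grey) and the 41 antioxidant genes (coloured by edgeR call). The antioxidant genes lay between −1.12 and 0.58, within the range of −3.33 to 4.45 of all genes, and 38 of them had a mean of at least 10 CPM.

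Short stretches of promoter are shown because the biology of this pathway turns on such sites, and because genes that hold one moved in different directions here. RefSeq windows of 300 bases (250 before to 50 from an annotated start site, GRCh38.p14) were at hand for 34 of the 44 genes, in 50 windows. They were searched on both strands for TGACNNNGC, the core of the antioxidant response element, and for TGAGTCA, the AP-1 element. The motifs overlap in the sequence TGACTCAGC, which holds both. Capitals mark the match, and the lower-case letters are the 10 bases on each side, all 5′ to 3′ on the strand of the gene, so that a match on the opposite strand appears as its reverse complement. The stretches shown are a selection, 1 for each of 8 genes. GSTO1 and KEAP1 each hold 1 further match to TGACNNNGC and TXNRD1 holds 2, and those of ME1 and MGST1 are not shown.
GCLM, chr1:93909446-93909474, minus strand, match at −34 to −26 from the start site: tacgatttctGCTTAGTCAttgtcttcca
KEAP1, chr19:10502784-10502812, minus strand, match at −31 to −23: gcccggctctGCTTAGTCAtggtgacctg
GSTO1, chr10:104254656-104254684, plus strand, match at −226 to −218: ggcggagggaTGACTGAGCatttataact
PGD, chr1:10398853-10398881, plus strand, match at −201 to −193: cctcgccgggGCAATGTCAtctaggtgct
TXNRD1, chr12:104215670-104215698, plus strand, match at −99 to −91: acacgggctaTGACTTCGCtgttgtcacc
GSTP1, chr11:67583736-67583764, plus strand, match at −66 to −58: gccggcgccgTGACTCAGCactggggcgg
BACH1, AP-1 element, chr21:29298864-29298890, plus strand, match at −48 to −42: gcggaaggagTGAGTCAcctgaccgct
OSGIN1, AP-1 element, chr16:83953133-83953159, plus strand, match at −97 to −91: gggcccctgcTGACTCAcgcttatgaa

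TGACNNNGC was found in 8 of the 34 genes, GCLM, GSTO1, GSTP1, KEAP1, ME1, MGST1, PGD and TXNRD1, and in 9 of their 50 windows. Over all promoter windows it was found in 13.3% of 35116, or in 16.1% of genes and 19.6% of tested genes. Of the 8 genes, GCLM, GSTO1, KEAP1 and PGD fell, TXNRD1 rose, GSTP1 and MGST1 did not pass the test, and ME1 had too few counts to be tested. TGAGTCA was found in BACH1, GSTP1, ME1 and OSGIN1, against 4.95% of all windows and 6.05% of genes, and BACH1 and OSGIN1 rose. A match is a description of these letters and not evidence of a bound site, and a window without a match says only that the letters are not in those 300 bases. The 10 of the 44 genes not searched were HMOX1, GSS, GSR, MGST2, TXN2, ABCC1, ABCC3, SOD1, PRDX1 and PRDX6.

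Of the 4 genes that form or oppose the NRF2 complex, BACH1 rose, KEAP1 and MAFG fell, and NFE2L2 did not pass the test. BACH1, the repressor that competes with NRF2 (chromosome 21, 29194071 to 29630751, plus strand), stood at 47.6, 50.7 and 50.2 CPM in siLINC00152 libraries A, B and C, against 36.1, 31.02 and 31.9 CPM in siGL2 libraries A, B and C. Every siLINC00152 library was above every siGL2 library, and the log2 fold change was 0.58 ± 0.06 (SE; edgeR adjusted p = 2.15e-08), the largest rise among the 41 genes. KEAP1, the adaptor that presents NRF2 for degradation (chromosome 19, 10486120 to 10503741, minus strand), stood at 79.7, 77.6 and 72.0 CPM in siLINC00152 and 86.3, 92.9 and 92.2 CPM in siGL2. Its groups did not overlap, with siLINC00152 lower, and the log2 fold change was −0.24 ± 0.05 (edgeR adjusted p = 2.71e-04). NFE2L2 itself (chromosome 2, 177227595 to 177392697, minus strand) stood at 132, 142 and 147 CPM in siLINC00152 and 126, 133 and 136 CPM in siGL2. The siLINC00152 range began within the siGL2 range, and the log2 fold change of 0.09 ± 0.05 (95% interval −0.01 to 0.19) did not pass (edgeR adjusted p = 0.111). Without siLINC00152 library A it was 0.13 and passed (edgeR adjusted p = 0.0288). AC019080.1 and AC079305.1 hold 12.8% of the 75-base stretches of its transcripts.

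MAFG, a small MAF partner of both NRF2 and BACH1, had 72.6, 65.3 and 64.2 CPM in siLINC00152 and 72.8, 74.3 and 73.5 CPM in siGL2. The log2 fold change was −0.13 ± 0.05 (edgeR adjusted p = 0.0354), with siLINC00152 library A just under the lowest siGL2 library. The call did not hold without siLINC00152 library B or C (log2 fold change −0.10 and −0.09, edgeR adjusted p = 0.148 and 0.197) or without siGL2 library B or C (−0.12 and −0.13, edgeR adjusted p = 0.0931 and 0.0602). The ratio of BACH1 to NFE2L2 counts was 0.360, 0.356 and 0.342 in siLINC00152 libraries A, B and C. In siGL2 libraries A, B and C it was 0.286, 0.233 and 0.234. That ratio, like the other ratios of 2 genes below, takes no account of gene length. All were chosen after the values were seen and have no test.

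**Figure D3:**
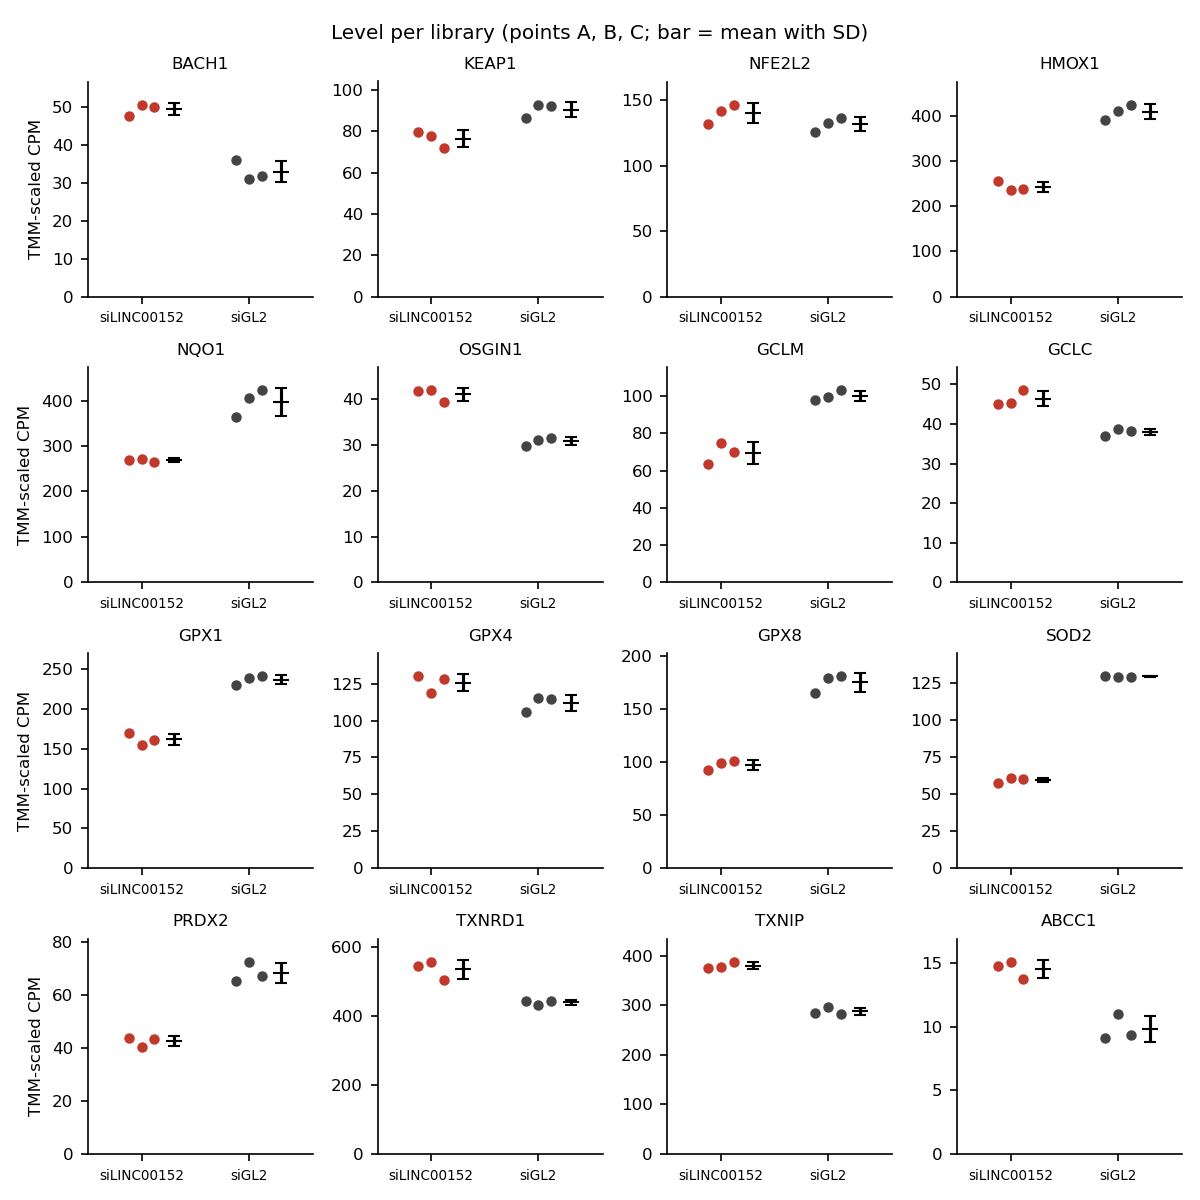
TMM-scaled CPM of 16 of the genes in each library (points in the order A, B, C; bar with error the mean ± SD of 3), siLINC00152 in red and siGL2 in dark grey, each axis starting at 0. The 16 genes are a selection that includes those with the largest changes. The groups did not overlap in 15 of the 16, the exception being NFE2L2. They did not overlap in 33 of all 41 tested antioxidant genes and in 67.7% of all tested genes.

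Of the 3 genes taken as inducible NRF2 targets, HMOX1 and NQO1 fell and OSGIN1 rose. HMOX1, haem oxygenase 1, which BACH1 represses and NRF2 induces (chromosome 22, 35380361 to 35394214, plus strand), stood at 256, 236 and 239 CPM in siLINC00152, against 391.8, 410.0 and 425 CPM in siGL2. It was 1.68-fold lower with no overlap, and the log2 fold change was −0.75 ± 0.05 (edgeR adjusted p = 1.83e-11). NQO1, the quinone reductase often used to read NRF2 activity (chromosome 16, 69706996 to 69726951, minus strand), stood at 269, 272 and 264 CPM in siLINC00152, against 363, 404 and 422 CPM in siGL2. The siLINC00152 values lay close together and under all siGL2 values, and the log2 fold change was −0.56 ± 0.05 (edgeR adjusted p = 5.05e-09). The antisense gene AC092115.2 overlaps 17.7% of the exonic bases of NQO1 and shares 12.7% of its 75-base stretches. OSGIN1, which encodes a growth inhibitor induced by oxidative stress (chromosome 16, 83948282 to 83966332, plus strand), went the other way. It had 41.9, 42 and 39.5 CPM in siLINC00152, all above the 29.9, 31.2 and 31.6 CPM in siGL2, and the log2 fold change was 0.41 ± 0.05 (edgeR adjusted p = 7.24e-07). AC009119.2 shares 11.3% of its 75-base stretches.

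The 4 genes of glutathione synthesis and recycling all passed the test, and 3 of them fell (background 64.3% past the threshold, 32.2% lower). Glutamate-cysteine ligase, which catalyses the first and rate-limiting step of glutathione synthesis, is built of a catalytic subunit, GCLC, and a modifier subunit, GCLM. GCLM (chromosome 1, 93885205 to 93909456, minus strand) stood at 63.4, 74.99 and 70.1 CPM in siLINC00152, against 97.8, 99.8 and 103 CPM in siGL2. GCLC (chromosome 6, 53497341 to 53616970, minus strand) stood at 45.0, 45.4 and 48.5 CPM in siLINC00152, against 37.1, 38.6 and 38.2 CPM in siGL2. Neither gene overlapped between the groups, and they moved in opposite directions. The log2 fold change was −0.53 ± 0.05 in GCLM (edgeR adjusted p = 4.28e-08) and 0.29 ± 0.05 in GCLC (edgeR adjusted p = 5.05e-05). The ratio of GCLC to GCLM, both in CPM, was 0.710, 0.605 and 0.692 in siLINC00152 libraries A, B and C and 0.379, 0.387 and 0.371 in siGL2 libraries A, B and C. It was higher in each siLINC00152 library than in any siGL2 library.

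GSS, glutathione synthetase, which adds glycine in the second step, stood at 101 ± 1.62 CPM in siLINC00152 and 115 ± 1.91 CPM in siGL2 (SD, n = 3). GSR, the reductase that returns oxidised glutathione to its reduced form, stood at 81.0 ± 0.526 CPM in siLINC00152 and 100.4 ± 0.579 CPM in siGL2 (SD, n = 3). Both fell without overlap, at log2 fold changes of −0.19 ± 0.04 in GSS (edgeR adjusted p = 8.39e-04) and −0.31 ± 0.04 in GSR (edgeR adjusted p = 3.17e-06).

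Of 5 glutathione peroxidase genes, GPX1 and GPX8 fell and GPX4 rose, and GPX3 and GPX7 were not tested. GPX8, a peroxidase of the endoplasmic reticulum membrane (chromosome 5, 55160118 to 55167071, plus strand), stood at 92.3, 99.5 and 101 CPM in siLINC00152, against 165, 179 and 181 CPM in siGL2. It was 1.79-fold lower with no overlap (log2 fold change −0.84 ± 0.05, edgeR adjusted p = 8.40e-12). GPX1, the selenium-containing peroxidase of the cytosol and mitochondria (chromosome 3, 49357171 to 49358600, minus strand), had 169, 154 and 162 CPM in siLINC00152 and 230.0, 239 and 241 CPM in siGL2. It was lower in every siLINC00152 library (log2 fold change −0.55 ± 0.05, edgeR adjusted p = 1.57e-09). GPX4, which reduces phospholipid hydroperoxides and guards cells against ferroptosis (chromosome 19, 1103926 to 1106791, plus strand), had 130.1, 119 and 128 CPM in siLINC00152 and 105, 115 and 115 CPM in siGL2. Its groups did not overlap, at a small rise of 0.17 ± 0.05 on the log2 scale (edgeR adjusted p = 0.00558). When library size alone set the scale, GPX4 did not pass (log2 fold change 0.10, edgeR adjusted p = 0.0799).

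The ratio of GPX4 to GPX1 was 0.769, 0.770 and 0.791 in siLINC00152 and 0.459, 0.481 and 0.475 in siGL2, higher in every siLINC00152 library. GPX7, also of the endoplasmic reticulum, had 0 counts in all 6 libraries. That allows up to 0.0649 to 0.0715 CPM per library, here without TMM scaling and by counting error only. GPX3, the secreted plasma form, had 0, 0 and 1 counts in siLINC00152 and 0, 0 and 0 in siGL2. Per kilobase of merged exons, GPX1 took 56.4% ± 0.785 of the summed level of the 3 measured peroxidases in siLINC00152 and 62.2% ± 0.566 in siGL2 (SD, n = 3). GPX4 took 31.01% ± 0.378 in siLINC00152 and 20.8% ± 0.320 in siGL2, and GPX8 12.6% ± 0.948 in siLINC00152 and 17.0% ± 0.262 in siGL2. The shares depend on the length used. With the median length of RefSeq transcripts, GPX4 took 39.2% in siLINC00152 and 26.7% in siGL2, and GPX1 40.8% in siLINC00152 and 45.8% in siGL2.

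**Figure D4:**
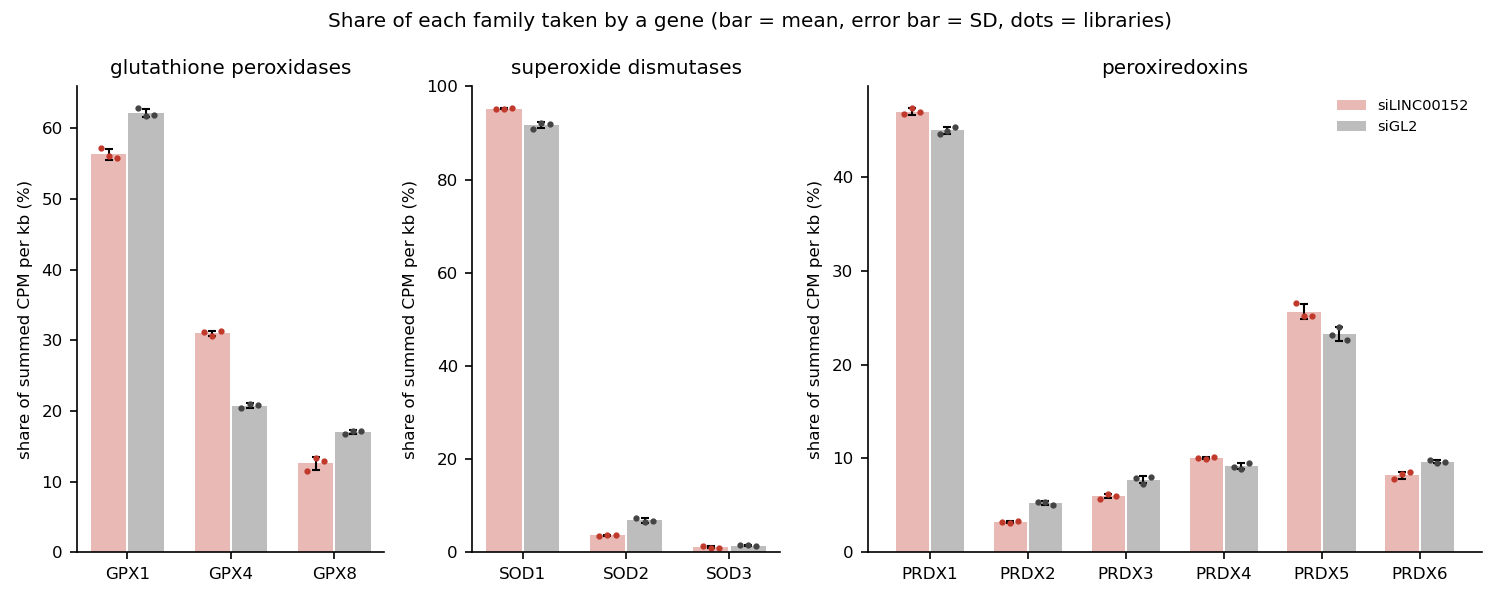
Share of the summed level per kilobase of merged exons (CPM per kb, in percent) taken by each measured glutathione peroxidase, superoxide dismutase and peroxiredoxin, siLINC00152 in red beside siGL2 in grey (bar the mean of 3 libraries, error bar SD, dots libraries). GPX4 stood at 31.01% in siLINC00152 against 20.8% in siGL2, SOD2 at 3.63% against 6.86% and PRDX2 at 3.21% against 5.26%.

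Of 5 glutathione transferase genes, 1 fell and 4 did not pass the test. GSTO1, the omega-class transferase (chromosome 10, 104235356 to 104267459, plus strand), stood at 114, 119.9 and 120.3 CPM in siLINC00152, against 137, 158 and 162 CPM in siGL2. All siLINC00152 libraries were lower, and siGL2 library A was the lowest of its group (log2 fold change −0.37 ± 0.06, edgeR adjusted p = 7.55e-06). GSTP1, the pi-class transferase of many tumours, had 122, 116 and 122 CPM in siLINC00152 and 114, 131 and 134 CPM in siGL2. MGST1, the most abundant microsomal transferase here, had 272, 292 and 294 CPM in siLINC00152 and 273, 306 and 316 CPM in siGL2. In both genes the groups overlapped through siGL2 library A. The log2 fold changes of −0.07 ± 0.05 in GSTP1 (95% interval −0.19 to 0.04) and −0.06 ± 0.05 in MGST1 (−0.17 to 0.05) did not pass (edgeR adjusted p = 0.266 and 0.294). Without siGL2 library A both passed as lower, at −0.14 in GSTP1 and −0.12 in MGST1 (edgeR adjusted p = 0.00409 and 0.0074), and with library size alone as the scale both did too, at −0.14 and −0.13 (edgeR adjusted p = 0.0329 and 0.0332). With a length offset GSTP1 had the opposite sign (0.04, not past the threshold). MGST3 stood at 75.03 ± 0.143 CPM in siLINC00152 and 73.8 ± 2.97 CPM in siGL2 (log2 fold change 0.02 ± 0.05, 95% interval −0.07 to 0.12, edgeR adjusted p = 0.679). MGST2 was near the lower limit of detection, with 0.437 ± 0.0562 CPM in siLINC00152 and 0.370 ± 0.101 CPM in siGL2 (log2 fold change 0.23 ± 0.29, edgeR adjusted p = 0.506).

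Of the 6 genes of the thioredoxin system, TXNIP, TXNRD1 and TXN rose, TXN2 fell, and TXNRD2 and SRXN1 did not pass. TXNIP, which binds and inhibits thioredoxin (chromosome 1, 145992435 to 145996600, minus strand), stood at 376, 378 and 388 CPM in siLINC00152, against 285, 296 and 284 CPM in siGL2. TXNRD1, the cytosolic reductase of thioredoxin and an NRF2 target (chromosome 12, 104215779 to 104350305, plus strand), stood at 545, 557 and 503 CPM in siLINC00152, against 444, 432 and 443 CPM in siGL2. All siLINC00152 libraries were above all siGL2 libraries in both, at log2 fold changes of 0.40 ± 0.04 in TXNIP and 0.28 ± 0.05 in TXNRD1 (edgeR adjusted p = 5.12e-08 and 1.52e-05). Cytosolic thioredoxin itself, TXN (chromosome 9, 110243811 to 110256640, minus strand), had 360.2, 360.0 and 373 CPM in siLINC00152 and 286, 336 and 339.9 CPM in siGL2. Its groups did not overlap, siGL2 library A lay well under B and C, and TXN rose by 0.18 ± 0.05 on the log2 scale (edgeR adjusted p = 0.00639). With library size alone as the scale TXN did not pass (0.12, edgeR adjusted p = 0.0699).

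The mitochondrial thioredoxin, TXN2, had 62.0 ± 0.835 CPM in siLINC00152 and 70.8 ± 3.94 CPM in siGL2 (SD, n = 3; log2 fold change −0.19 ± 0.05, edgeR adjusted p = 0.00201). With an offset for gene length, TXN2 did not pass (−0.09, edgeR adjusted p = 0.085). Its reductase, TXNRD2, had 22.8 ± 1.23 CPM in siLINC00152 and 22.8 ± 0.408 CPM in siGL2, a log2 fold change of 0.00 ± 0.06 (95% interval −0.13 to 0.12, edgeR adjusted p = 0.966). SRXN1, sulfiredoxin, which restores overoxidised peroxiredoxins, had 89.5, 87.8 and 83.5 CPM in siLINC00152 and 91.4, 90.6 and 92.7 CPM in siGL2. Its groups did not overlap, yet the log2 fold change of −0.07 ± 0.05 did not pass (edgeR adjusted p = 0.161), and with library size alone as the scale it passed at −0.14 (edgeR adjusted p = 0.0107). AL121758.1 shares 84.6% of the 75-base stretches of SRXN1, so its counts are uncertain.

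Of the genes that supply NADPH or carry the pentose phosphate pathway, PGD and TALDO1 fell, TKT rose and ME1 was not tested. PGD, which makes NADPH from 6-phosphogluconate (chromosome 1, 10398592 to 10420144, plus strand), stood at 136, 132 and 133 CPM in siLINC00152, against 174, 177 and 174 CPM in siGL2. Transaldolase, TALDO1 (chromosome 11, 747329 to 765024, plus strand), stood at 115, 116 and 115 CPM in siLINC00152, against 135, 143 and 148 CPM in siGL2. Transketolase, TKT (chromosome 3, 53224707 to 53256052, minus strand), stood at 438, 412 and 427 CPM in siLINC00152, against 352, 357 and 356 CPM in siGL2. The groups overlapped in none of the 3 genes, and TKT was the one that was higher. Log2 fold changes were −0.39 ± 0.04 in PGD, −0.30 ± 0.05 in TALDO1 and 0.26 ± 0.04 in TKT (edgeR adjusted p = 9.64e-08, 9.88e-06 and 1.61e-05). The ratio of TKT to TALDO1 was 3.80, 3.56 and 3.70 in siLINC00152 libraries A, B and C and 2.61, 2.49 and 2.41 in siGL2 libraries A, B and C. ME1, malic enzyme 1, had 0, 1 and 1 counts in siLINC00152 and 6, 6 and 3 in siGL2, too few for the test.

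Of the 3 ABCC exporters, which pump glutathione conjugates out of cells, ABCC1 and ABCC3 rose and ABCC2 did not pass. ABCC1 (chromosome 16, 15949577 to 16143074, plus strand) stood at 14.8, 15.1 and 13.8 CPM in siLINC00152, against 9.13, 11.02 and 9.32 CPM in siGL2. ABCC3 (chromosome 17, 50634777 to 50692252, plus strand) stood at 48.4, 40.9 and 44 CPM in siLINC00152, against 36.6, 36.2 and 34.2 CPM in siGL2. Both were higher in every siLINC00152 library, at log2 fold changes of 0.57 ± 0.08 in ABCC1 and 0.32 ± 0.06 in ABCC3 (edgeR adjusted p = 1.94e-06 and 8.88e-05). ABCC2 had 10.2, 8.90 and 7.82 CPM in siLINC00152 and 8.02, 8.36 and 8.16 CPM in siGL2, with overlap (log2 fold change 0.13 ± 0.09, 95% interval −0.05 to 0.32, edgeR adjusted p = 0.195). Without siLINC00152 library C it passed at 0.23 (edgeR adjusted p = 0.0384).

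All 3 superoxide dismutase genes fell, and catalase rose. SOD2, the manganese enzyme of the mitochondrial matrix (chromosome 6, 159669057 to 159745186, minus strand), had the largest change of the 41 genes. It stood at 57.7, 60.5 and 60.3 CPM in siLINC00152, against 129.5, 129 and 129 CPM in siGL2. The libraries of each group lay close together and the groups far apart, at 2.17-fold lower (log2 fold change −1.12 ± 0.05, edgeR adjusted p = 2.33e-14). SOD1, the cytosolic copper-zinc enzyme (chromosome 21, 31659622 to 31668931, plus strand), had 194, 186 and 193 CPM in siLINC00152 and 193, 226 and 217 CPM in siGL2. Its groups overlapped, since siGL2 library A lay within the siLINC00152 range, and the log2 fold change was −0.15 ± 0.05 (edgeR adjusted p = 0.0146). SOD1 did not pass without siLINC00152 library B (−0.13, edgeR adjusted p = 0.0738), without siGL2 library B (−0.11, edgeR adjusted p = 0.116) or with an offset for gene length (−0.04, edgeR adjusted p = 0.371).

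SOD3, the secreted form, was scarce, with 2.97, 2.14 and 2.18 CPM in siLINC00152 and 3.64, 3.87 and 3.26 CPM in siGL2. It was lower in every siLINC00152 library (log2 fold change −0.56 ± 0.13, edgeR adjusted p = 0.00106). Catalase, CAT (chromosome 11, 34438925 to 34472062, plus strand), which splits hydrogen peroxide in peroxisomes, had 78.4, 76.0 and 81.3 CPM in siLINC00152 and 65.5, 67.8 and 70.8 CPM in siGL2. It was higher in every siLINC00152 library (log2 fold change 0.21 ± 0.05, edgeR adjusted p = 8.29e-04). The ratio of SOD2 to SOD1 was 0.298, 0.325 and 0.312 in siLINC00152 libraries A, B and C and 0.670, 0.570 and 0.595 in siGL2 libraries A, B and C. Per kilobase of RefSeq transcript, SOD2 took 23.2% of the summed superoxide dismutase level in siLINC00152 and 37.1% in siGL2. Per kilobase of merged exons, of which SOD2 has 16493 bases against 990.5 in its median RefSeq transcript, it took 3.63% ± 0.156 in siLINC00152 and 6.86% ± 0.533 in siGL2 (SD, n = 3). The size of that share thus rests on the length chosen, whereas it was lower in siLINC00152 with both.

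Of the 6 peroxiredoxins, which reduce hydrogen peroxide with electrons from thioredoxin or, in PRDX6, from glutathione, PRDX2, PRDX3 and PRDX6 fell, PRDX4 and PRDX5 rose, and PRDX1 did not pass. PRDX2, a cytosolic form (chromosome 19, 12796820 to 12801859, minus strand), stood at 43.9, 40.4 and 43.4 CPM in siLINC00152, against 65.2, 72.5 and 67.2 CPM in siGL2. It was 1.604-fold lower with no overlap (log2 fold change −0.68 ± 0.05, edgeR adjusted p = 5.77e-10), and the antisense gene AC018761.2 overlaps 14.1% of its exonic bases. PRDX3, of the mitochondria (chromosome 10, 119167703 to 119178833, minus strand), had 127, 131 and 129 CPM in siLINC00152 and 156, 162 and 173 CPM in siGL2. PRDX6 (chromosome 1, 173477266 to 173488807, plus strand) had 119, 123 and 127 CPM in siLINC00152 and 135, 146 and 145 CPM in siGL2. Both were lower in every siLINC00152 library, at log2 fold changes of −0.34 ± 0.05 in PRDX3 and −0.21 ± 0.05 in PRDX6 (edgeR adjusted p = 2.16e-06 and 6.28e-04).

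PRDX4, of the endoplasmic reticulum, had 124, 117 and 121 CPM in siLINC00152 and 101, 109.7 and 115 CPM in siGL2. PRDX5, of mitochondria, peroxisomes and cytosol, had 154, 139.8 and 141 CPM in siLINC00152 and 119, 139 and 128 CPM in siGL2. Both were narrowly higher in siLINC00152 without overlap, at log2 fold changes of 0.16 ± 0.05 in PRDX4 and 0.17 ± 0.05 in PRDX5 (edgeR adjusted p = 0.0102 and 0.00962). With library size alone as the scale neither passed (0.09 and 0.10, edgeR adjusted p = 0.125 and 0.107), and PRDX5 did not pass without siLINC00152 library A (0.13, edgeR adjusted p = 0.0736). PRDX1, the most abundant peroxiredoxin, had 460.0, 448 and 448 CPM in siLINC00152 and 392.5, 443 and 438 CPM in siGL2. Its groups did not overlap, but the log2 fold change of 0.09 ± 0.05 did not pass (95% interval −0.01 to 0.19, edgeR adjusted p = 0.101). With an offset for gene length it passed at 0.22 (edgeR adjusted p = 3.57e-05). MMACHC overlaps 24.9% of the exonic bases of PRDX1 on the opposite strand and shares 18.5% of its 75-base stretches. Per kilobase of merged exons, PRDX1 took 46.9% ± 0.335 of the summed peroxiredoxin level in siLINC00152 and 44.9% ± 0.342 in siGL2, and PRDX2 3.21% ± 0.0989 in siLINC00152 and 5.26% ± 0.182 in siGL2 (SD, n = 3).

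Ordered by level per kilobase of merged exons in siGL2, TXN and PRDX1 stood highest, with 319 ± 6.35 CPM per kb in siLINC00152 and 281 ± 26.2 in siGL2 for TXN, and 297 ± 4.59 in siLINC00152 and 279 ± 18.1 in siGL2 for PRDX1 (SD, n = 3). In siGL2 their levels did not differ beyond their spread. HMOX1 and GPX1 came next, with 101 ± 4.56 CPM per kb in siLINC00152 and 170.0 ± 6.90 in siGL2 for HMOX1, and 113 ± 5.18 in siLINC00152 and 166 ± 4.26 in siGL2 for GPX1. In siGL2 these levels too lay within their spread of each other. At the low end stood ABCC1, with 1.92 ± 0.0908 CPM per kb in siLINC00152 and 1.30 ± 0.137 in siGL2, ABCC2, with 1.15 ± 0.154 in siLINC00152 and 1.04 ± 0.0215 in siGL2, and MGST2, with 0.137 ± 0.0177 in siLINC00152 and 0.116 ± 0.0318 in siGL2. With RefSeq transcript lengths TXN still led, at 484 CPM per kb in siLINC00152 and 427 in siGL2, but MGST1, with 313 in siLINC00152 and 327 in siGL2, followed PRDX1 in siGL2, in place of HMOX1.

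A further 112 genes of the same pathways were taken as 7 lists named by function, chosen with earlier results of these data known. Of the 100 tested, 33 were higher and 38 lower (71.0%, against the background of 64.3%), with a median log2 fold change of −0.01. The 4 genes of each list with the smallest p are named. Of 8 other CNC and small MAF factors and parts of the KEAP1 ligases, 4 rose and 1 fell. MAFK, a small MAF partner, stood at 69.0, 62.1 and 57.4 CPM in siLINC00152, against 36.2, 35.8 and 33.9 CPM in siGL2. It rose without overlap (0.83 ± 0.06 on the log2 scale, edgeR adjusted p = 1.81e-10), although TMEM184A overlaps 18.2% of its exonic bases on the opposite strand. Among the others, BTRC, the substrate receptor of a KEAP1-independent NRF2 ligase, rose by 0.76 ± 0.06 and the NRF2 relative NFE2L1 by 0.40 ± 0.04, while MAFF fell (−0.41 ± 0.06; edgeR adjusted p at most 1.67e-06 in these 3). The ratio of MAFK to MAFG was 0.950, 0.951 and 0.895 in siLINC00152 libraries A, B and C and 0.498, 0.481 and 0.461 in siGL2 libraries A, B and C.

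Of 18 other NRF2 targets, 4 rose (22.2%) and 8 fell (44.4%), against a background of 32.2% in each direction. The aldo-keto reductase gene AKR1B10 stood at 33.9, 32.8 and 35.6 CPM in siLINC00152, against 13.0, 13.7 and 14.7 CPM in siGL2. It rose 2.47-fold without overlap (log2 fold change 1.30 ± 0.06, edgeR adjusted p = 2.20e-13). TRIM16 rose as well (0.55 ± 0.06), though 37.4% of its 75-base stretches occur in TRIM16L and its neighbours. The carbonyl reductase gene CBR3 (−0.83 ± 0.08; 42.2% of its exonic bases overlapped by CBR3-AS1) and the biliverdin reductase gene BLVRA (−0.56 ± 0.06), which acts after haem oxygenase, fell (edgeR adjusted p at most 4.12e-08 in these 3).

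Of 16 other glutathione enzymes, 3 rose (18.75%) and 10 fell (62.5%), against a background of 32.2% in each direction. The median log2 fold change was −0.23. GGCT, which breaks down gamma-glutamyl amino acids, stood at 15.3, 16.2 and 15.9 CPM in siLINC00152, against 33.3, 38.6 and 39.5 CPM in siGL2. It was 2.35-fold lower without overlap (log2 fold change −1.23 ± 0.07, edgeR adjusted p = 1.82e-12), and 19.5% of its 75-base stretches occur in other genes. The mu-class transferase gene GSTM2 (−0.84 ± 0.07; 14.2% of its stretches occur in its paralogs and neighbours) and CHAC2, which degrades glutathione (−0.80 ± 0.08), fell, while LANCL1 rose (0.49 ± 0.05; edgeR adjusted p at most 1.34e-08 in these 3).

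Of 15 other thioredoxin-fold proteins and methionine sulfoxide reductases, 4 rose (26.7%) and 7 fell (46.7%), against a background of 32.2% in each direction. GLRX3, a glutaredoxin of iron-sulfur cluster handling (−0.50 ± 0.05), and the methionine sulfoxide reductase gene MSRA (−0.38 ± 0.06) fell, and TXNDC12 (0.34 ± 0.05) and MSRB3 (0.39 ± 0.05) rose (edgeR adjusted p at most 6.20e-06 in these 4). Other genes share 43.9% of the 75-base stretches of TXNDC12. Of 13 other NADPH-supplying enzymes, 5 rose (38.5%) and 4 fell (30.8%), near the background of 32.2% in each direction. The folate enzyme gene MTHFD1 stood at 133, 140.2 and 129.5 CPM in siLINC00152, against 243, 234 and 237 CPM in siGL2, with no overlap (log2 fold change −0.83 ± 0.05, edgeR adjusted p = 2.17e-12; 11.04% of its exonic bases lie under genes of the opposite strand). The mitochondrial transhydrogenase gene NNT fell too (−0.56 ± 0.07), and the pentose phosphate isomerase gene RPIA (0.51 ± 0.06) and malic enzyme 2, ME2 (0.27 ± 0.05), rose (edgeR adjusted p at most 5.83e-05 in these 3). With library size alone as the scale, 3 of the 13 rose.

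Of 16 genes of selenoprotein synthesis and other selenoproteins, 7 rose (43.75%) and 5 fell (31.25%), against a background of 32.2% in each direction. With library size alone as the scale 4 rose. SEPHS1 (−0.44 ± 0.05), SEPW1 (−0.36 ± 0.05) and C11orf31 (−0.41 ± 0.06) fell and SELM rose (0.46 ± 0.06; edgeR adjusted p at most 7.28e-06 in these 4). Of 14 oxidant producers and other redox genes, 6 rose (42.9%) and 3 fell (21.4%), against the same background. The sestrin gene SESN1 stood at 38.4, 34.5 and 36.1 CPM in siLINC00152, against 15.4, 15.1 and 18.3 CPM in siGL2, without overlap (log2 fold change 1.16 ± 0.07, edgeR adjusted p = 9.79e-12). Its relative SESN2 rose as well (0.78 ± 0.05), while CYBA, a subunit of NADPH oxidases (−0.57 ± 0.05), and the mitochondrial carrier gene UCP2 (−0.81 ± 0.09) fell (edgeR adjusted p at most 1.72e-07 in these 3).

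**Figure D5:**
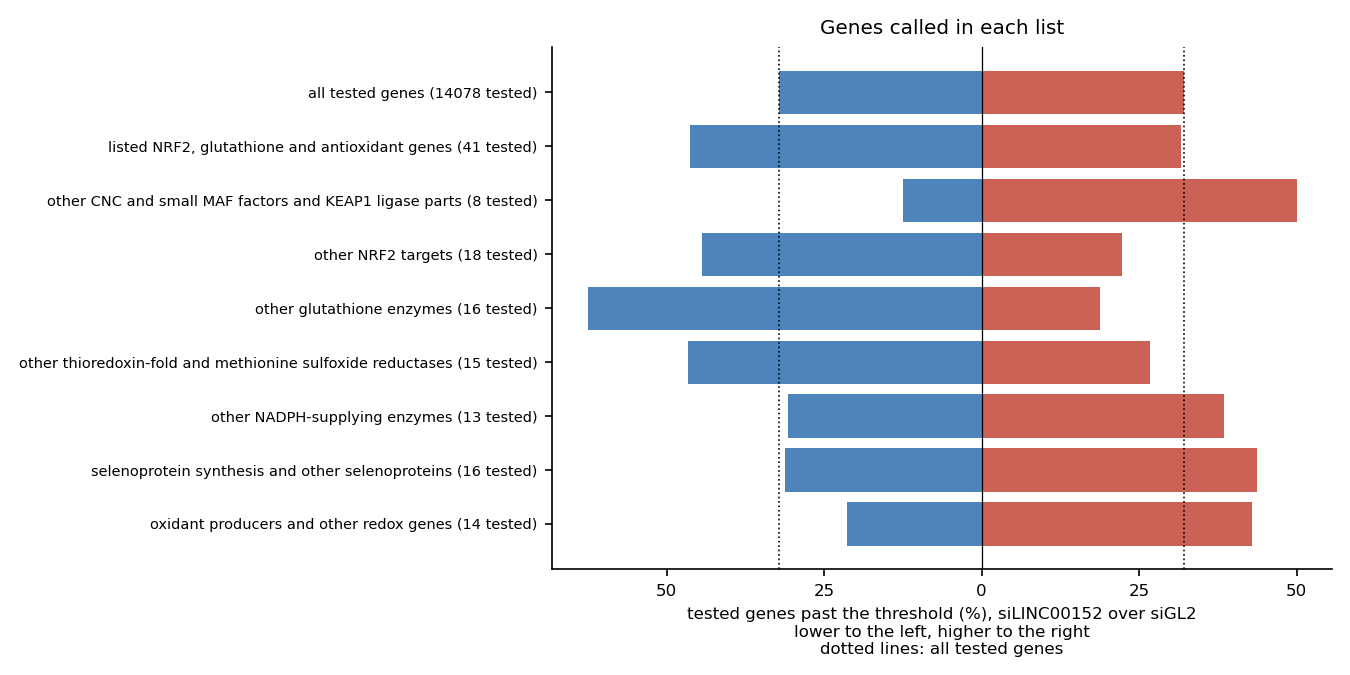
Share of tested genes past an edgeR adjusted p under 0.05 in each list, lower in siLINC00152 to the left and higher to the right, with the shares over all tested genes as dotted lines (32.2% in each direction) and the number tested in brackets. Of the 41 antioxidant genes 46.3% were lower and 31.7% higher, and the lists of 8 to 18 genes are small.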

How the data were processed

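PolyA RNA was made into strand-directional paired libraries, per the labels' protocols. Each library's deposited table holds raw read counts, whole numbers by gene symbol. The submitters' processing notes name bcl2fastq, HISAT, HTSeq, DESeq and the build hg38, without versions. Not given in the sources used here are the annotation, the strand setting and the handling of reads with several matches. Overlaps with other genes of at least 10% are therefore stated beside a gene.

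From the deposited counts, filterByExpr (10 as the minimum count, 15 as the minimum total) kept 14078 of 27192 genes, and libraries were scaled by TMM. Groups were compared over all 6 libraries with edgeR's robust quasi-likelihood test, two-sided and without covariates, with Benjamini-Hochberg adjustment over all tested genes. Standard errors are the size of the log2 fold change over the square root of F. Replicates were compared by chi-square, and no pair agreed within sampling noise (3.02 to 14.5 per degree of freedom). A count of 0 allows 3 counts, counting error only. Versions were R 4.3.3, edgeR 4.0.16, limma 3.58.1, DESeq2 1.42.0, matplotlib 3.10.9, pandas 2.3.3, scipy 1.17.1, numpy 2.4.6 and Python 3.11.15. The scripts were tested on simulated data.

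Coordinates, exon lengths and shared 75-base stretches come from GENCODE release 29 on GRCh38, which matched 24755 of 27192 symbols, 546 through another symbol, and all 44 listed genes. Promoter windows come from RefSeq (GRCh38.p14). Named were all 44 genes, LINC00152, up to 4 genes with the smallest p of each other list, and genes with a promoter match. Of the U87, astrocyte, neuron, microglia or blood, and endothelium lists, the most abundant marker was named. Other markers, the ratios, the family members in the closing section and the use of RefSeq transcript lengths were chosen after values were seen. The 44 genes and the other lists were chosen with earlier results of these data known. Alternatives were library size alone, DESeq2 size factors, upper-quartile factors, other filters, DESeq2, limma-voom, no robust estimation, a length offset, a replicate block and leaving out each library.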

Additional observations from a re-analysis of the deposited data

How the results depend on the processing

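Each of the 41 tested genes was refitted under 16 alternatives, which changed the scaling, the filter, the tool, the spread estimate, a length offset, a replicate block or left out 1 library. Of 655 refitted values, 627 kept their direction and their side of the threshold, 13 no longer passed, 8 passed only then and 7 changed sign. Of the 32 genes past the threshold, 25 passed under all 16. Calls that changed stand beside each gene in the results, and none of the 7 sign changes passed the test. They were GSTP1 with a length offset (0.041), MGST3 with library size alone (−0.044), with a length offset (−0.042) and without siGL2 library A (−0.0084), and TXNRD2 without siLINC00152 library C (0.042), siGL2 library A (0.00099) or siGL2 library C (0.0061). Without 1 library, the log2 fold change of MGST3 ran between −0.0084 and 0.039, and the log2 fold change of TXNRD2 between −0.031 and 0.042. The cause was not tested. With library size alone the median log2 fold change of all genes moved to −0.07, and 3755 genes were higher and 5389 lower, against 4529 and 4529. The count of antioxidant genes then was 9 higher and 22 lower. The small rises of 0.16 to 0.18 in GPX4, TXN, PRDX4 and PRDX5 thus depend on the scaling. Over the 16 alternatives they kept their sign. They ran between 0.10 and 0.28 in GPX4, 0.11 and 0.33 in TXN, 0.09 and 0.27 in PRDX4, and 0.10 and 0.33 in PRDX5. In 3 further lists a count moved. In the list of CNC and small MAF factors 2 genes fell with library size alone, with a length offset and without siLINC00152 library A, and the NADPH and selenoprotein lists had 3 and 4 rises with library size alone.

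The letters A, B and C were also fitted as a replicate block. The labels do not say what a letter shares between groups, and the deviations of same-letter libraries correlated at 0.08, −0.01 and 0.07, so the letters were not taken as pairs. Under the replicate block 13 antioxidant genes were higher and 19 lower and none changed its call, and over all genes 4571 were higher and 4584 lower. Other pathway genes had 33 higher and 39 lower, and LINC00152 stood at −2.51. Levels per kilobase and shares within a family moved with the transcript length used, as given for the peroxidases and SOD2.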

Other observations

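A few further genes of the wider lists are given here, named after their values were seen and with no test of the family. All 3 sestrin genes, whose products are stress sensors that restrain mTORC1, were higher, against a background of 32.2% of all tested genes. SESN3 stood at 6.36, 7.19 and 7.56 CPM in siLINC00152 libraries A, B and C and 3.99, 4.68 and 3.66 CPM in siGL2 libraries A, B and C, a log2 fold change of 0.78 ± 0.10 (SE; edgeR adjusted p = 1.38e-06), beside 1.16 in SESN1 and 0.78 in SESN2. The 3 tested mu-class glutathione transferase genes were lower, against a background of 32.2% of all tested genes. Log2 fold changes were −0.48 ± 0.08 in GSTM1, −0.84 ± 0.07 in GSTM2 and −0.62 ± 0.06 in GSTM4 (edgeR adjusted p = 1.96e-05, 1.20e-09 and 5.30e-08). Their transcripts share sequence, with 39.1%, 14.2% and 11.1% of 75-base stretches found in other genes, and the sources used here do not state how such reads were counted. The cystine transporter gene SLC7A11, which brings in the sulfur for glutathione, stood at 49.5, 50.3 and 41.7 CPM in siLINC00152 and 36.8, 33.9 and 38.6 CPM in siGL2 and rose by 0.37 ± 0.07 (edgeR adjusted p = 7.77e-05). Its direction was that of GCLC and opposite to that of GCLM, GSS and GSR.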
